A study of Homo sapiens with 8 samples.

Results

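The knockdown of MTHFD2 was examined in resting human lung fibroblasts, that is, in cells sampled without added TGF-β1. The cells were MRC5, an established line of human lung fibroblasts, and RNA was measured by bulk mRNA sequencing. The comparison was made between 2 libraries of the line with a hairpin against MTHFD2 (shMTHFD2 control 1 and 2) and 2 libraries of the line with a control hairpin (shMock control 1 and 2). These are 4 of the 8 libraries in the series, and the other 4 hold the same lines with TGF-β1. Taken were all genes that averaged 1 CPM or more across the 8 libraries (CPM being the count as a share of its library's counts), 13493 of 60666 gene IDs. A single hairpin was used and no rescue is among the libraries. Every difference below is therefore one between these lines, and a lack of MTHFD2 and any other difference between them cannot be told apart. Group membership was read from the sample titles. The genotype field names another gene in 1 of the 2 resting knockdown samples and in both TGF-β1 knockdown samples. The latter enter the TGF-β1 comparison, the interaction test and, as all 8 libraries do, the estimate of spread behind each test. The treatment text (4 ng of TGF-β1, 24 h) stands on the resting samples too, and the extraction text speaks of another cell line, A549. The labels do not state that replicates came from separate cultures, so the p-values describe the spread among these libraries only, and it may be technical.

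MTHFD2 is a bifunctional dehydrogenase and cyclohydrolase of the mitochondrial folate pathway. In that pathway SHMT2 takes a carbon unit from serine, MTHFD2 oxidises it, and MTHFD1L releases it as formate, which the cytosol uses to build purines and thymidylate. MTHFD2 is low in most resting adult tissue and high in embryonic and dividing cells, and the transcription factor ATF4 is known to raise it together with the enzymes of serine synthesis. A resting fibroblast keeps a basal programme of actin fibres, matrix and antiviral genes, and these programmes were read here as gene lists.

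The 4 resting libraries held 18162738 to 22221927 counts, at which 3 counts, used as a floor, stand at 0.135 to 0.155 CPM. Replicates correlated at 0.991 on log2 CPM in both groups, a figure over genes that do not vary independently. In a principal component analysis of the 4 libraries the leading axis held 57.1% of the variance and separated the lines. Of 13 fibroblast markers all 13 were tested, and they summed to 34066 to 37420 CPM in shMock and 31254 to 33605 CPM in shMTHFD2. The endothelial markers PECAM1, CDH5, ERG and CLDN5, the epithelial markers CDH1, KRT19, CLDN3, NKX2-1, SFTPB and SFTPC, and the leukocyte markers PTPRC, CD3E and MS4A1 had no counts in the resting libraries. Summed over each list, the endothelial markers held 98.9 to 110 CPM in shMock and 96.9 to 104 CPM in shMTHFD2, the epithelial ones 35.8 to 37.1 and 26.8 to 35.0 CPM, and the leukocyte ones, nearly all from CD68, 101 to 107 and 75.0 to 76.6 CPM.

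The hairpin's target came first. MTHFD2 (ENSG00000065911, GRCh38 chromosome 2, 74198562 to 74217565, plus strand) stood at 58.8 and 57.1 CPM in shMock and at 14.9 and 18.7 CPM in shMTHFD2, a log2 fold change of -1.79 (SE 0.10, edgeR adjusted p = 3.5e-07). The 2 groups lay far apart, as the plot of levels by library shows. The gene overlaps 2 genes on the opposite strand, and whether reads were counted by strand is not given in the sources used here. Within 500 kb of it 27 other genes were tested. Their median log2 fold change was 0.06, TET3 (0.49) and the read-through gene INO80B-WBP1 passed the test as higher, and ACTG2 (-0.90) passed as lower.

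**Figure D1:**
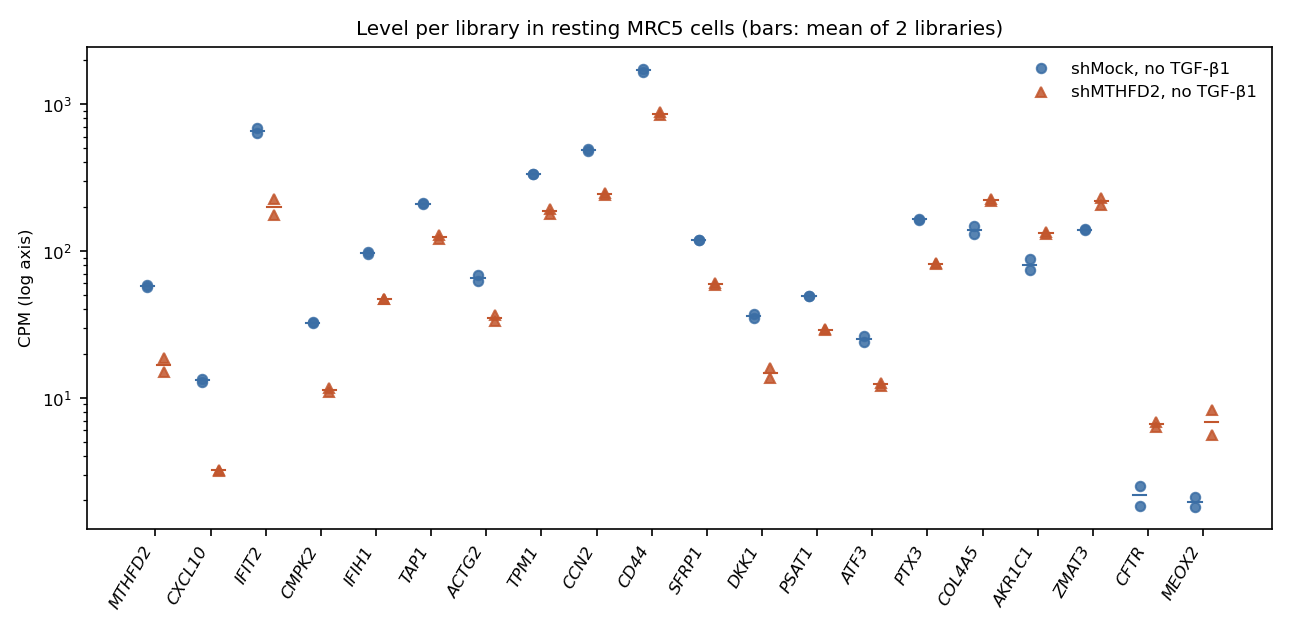
CPM on a log axis for 20 named genes in the 2 shMock (circles) and 2 shMTHFD2 (triangles) libraries without TGF-β1, with short bars at the mean of 2 libraries. MTHFD2 falls from 58.8 and 57.1 to 14.9 and 18.7 CPM, and in each gene drawn the libraries of the 2 lines do not overlap.

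Across all genes the shMTHFD2 line was lower more often than higher. By edgeR's quasi-likelihood test 1543 of 13493 genes passed an adjusted p of 0.05 (11.4%): 438 higher (3.25%) and 1105 lower (8.19%). Of these, 111 also passed a 2-fold minimum (26 higher, 85 lower). Without any threshold, both knockdown libraries lay above both control libraries in 25.2% of the genes and below them in 30.1%. The median log2 fold change of all tested genes was -0.01. The balance between the directions depended on the scaling: on library totals alone 755 genes were higher and 740 lower, with a median of 0.06. The number of calls also rested on single libraries, with 585 calls without shMock control 2, 637 without shMTHFD2 control 2 and 973 without shMock control 1. Counts in the lists below are to be read against the 3.25% and 8.19% of all genes.

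Interferon-stimulated genes fell broadly. They encode antiviral effectors that a cell keeps at a basal level and raises when interferon activates factors such as IRF9, which bind a short promoter element rich in GAAA. Of 50 effectors tested, 45 were lower and none higher, with a list median of -0.78, and their summed level was 10707 and 10296 CPM in shMock against 6180 and 6197 CPM in shMTHFD2. Leaving out any 1 library left 40 to 46 of them called.

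The promoters of these genes carry the element in letters. In the 300 bases around each RefSeq gene start (250 before, 50 after; assembly GRCh38.p14), the letters GAAA, any 2 bases and GAAA again, read on both strands, were found in 28 of the 41 effectors with a promoter in the table (68.3%), in 26 of the 38 lower ones (68.4%), and in 299 of all 10300 tested genes with a promoter (2.9%). A match is a description of letters and not a binding measurement. Stretches of 120 bases upstream of 5 lowered genes are shown with the matches in capitals, so that the element can be seen where it lies. They belong to the chemokine gene CXCL10 and to the effectors ISG15, GBP1, EPSTI1 and OAS3, and were chosen after their values were seen. These effectors had the largest falls among those with a promoter in the table that hold the letters upstream. IFIT2 and OASL have no promoter in it and were not searched. In ISG15 a pair of matches overlaps, giving a longer run of capitals, and in GBP1 the match is read on the opposite strand.
CXCL10 (chr4:76023628-76023747, minus strand): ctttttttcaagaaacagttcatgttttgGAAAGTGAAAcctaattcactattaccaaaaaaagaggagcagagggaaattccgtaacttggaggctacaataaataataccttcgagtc
ISG15 (chr1:1013332-1013451, plus strand): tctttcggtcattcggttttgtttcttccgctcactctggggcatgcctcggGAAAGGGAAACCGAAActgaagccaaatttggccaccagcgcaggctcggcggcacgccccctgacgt
GBP1 (chr1:89065271-89065390, minus strand): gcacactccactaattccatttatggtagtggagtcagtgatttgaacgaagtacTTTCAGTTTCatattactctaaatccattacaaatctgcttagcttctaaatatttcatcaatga
EPSTI1 (chr13:42992242-42992361, minus strand): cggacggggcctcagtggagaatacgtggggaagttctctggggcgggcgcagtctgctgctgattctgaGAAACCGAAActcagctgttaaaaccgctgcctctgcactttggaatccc
OAS3 (chr12:112938276-112938395, plus strand): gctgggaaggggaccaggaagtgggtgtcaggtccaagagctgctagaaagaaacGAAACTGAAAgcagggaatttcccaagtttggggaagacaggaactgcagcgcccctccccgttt

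**Figure D2:**
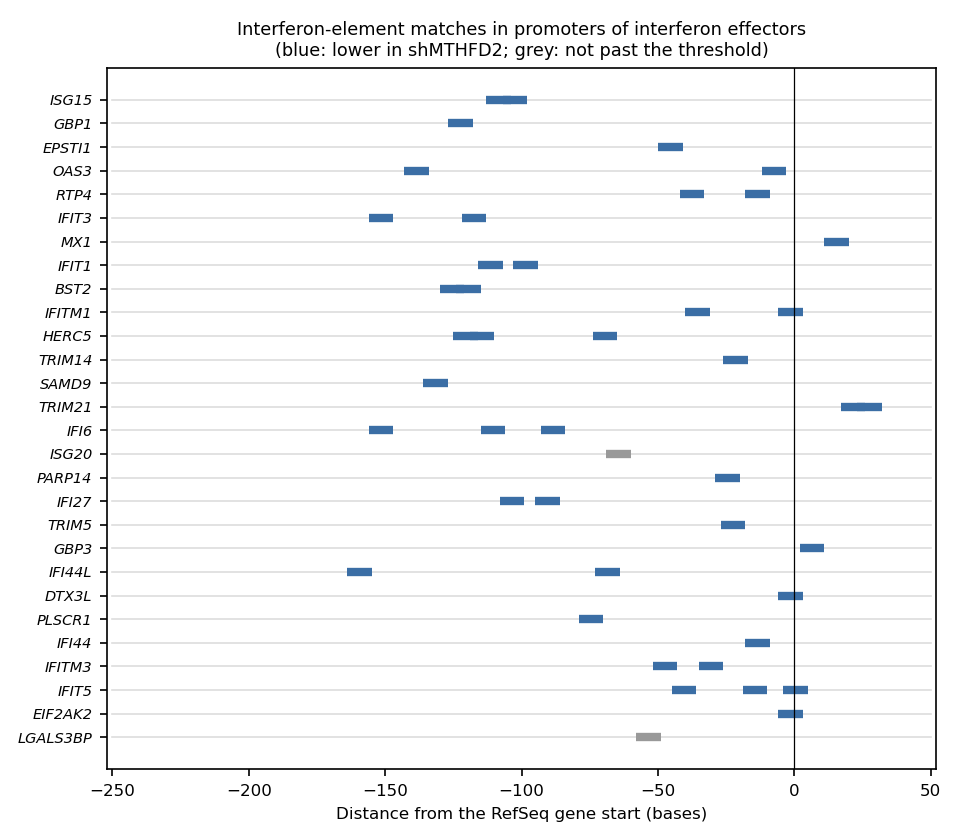
Position of each match to GAAA, any 2 bases and GAAA (bars) relative to the RefSeq gene start (x axis, bases) in the 28 interferon effectors that hold one, ordered with the largest fall at the top. Blue bars belong to the 26 effectors lower in shMTHFD2 and grey bars to ISG20 and LGALS3BP, which did not pass the test, and most matches lie upstream of the start.

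IFIT2, which binds viral RNA and blocks its translation, had 686 and 633 CPM in shMock and 175 and 225 CPM in shMTHFD2 (log2 fold change -1.72, SE 0.13, edgeR adjusted p = 3.3e-06). OASL, an antiviral relative of the oligoadenylate synthases, went from 11.5 and 14.2 to 2.87 and 5.27 CPM (-1.66). CMPK2, a mitochondrial nucleotide kinase induced with the antiviral genes, went from 32.3 and 32.5 to 11.0 and 11.7 CPM (-1.515). In all 3 genes each knockdown library lay below each control library, by 2-fold or more. ISG15, a ubiquitin-like modifier, had 377 and 364 CPM against 180 and 125 CPM (-1.28). The GTPase GBP1 had 132 and 125 CPM against 52.6 and 55.5 CPM (-1.25). EPSTI1 and OAS3 fell by 1.22 and 1.17 on the log2 scale, each with an edgeR adjusted p below that of ISG15 (6.5e-06 and 8.5e-06 against 2.5e-05).

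Upstream of the effectors the changes were narrower. Among 13 sensors of foreign nucleic acid 6 were lower. TLR3, the endosomal receptor for double-stranded RNA, had 2.60 and 5.08 CPM against 0.834 and 1.03 CPM (-2.03), but its call was lost without shMock control 2, shMTHFD2 control 1 or shMTHFD2 control 2 (edgeR adjusted p = 0.14, 0.069 and 0.061). IFIH1, the cytosolic sensor MDA5, went from 98.0 and 95.5 to 47.1 and 47.3 CPM (-1.035, edgeR adjusted p = 3.3e-06). SAMHD1, which degrades deoxynucleotides and restricts viruses, went from 150 and 148 to 73.1 and 81.7 CPM (-0.94). Of 19 interferon receptors, JAK-STAT members and IRF factors only 3 passed, all lower, among them IRF7 (85.2 and 85.8 against 54.9 and 40.4 CPM) and IRF1 (50.8 and 47.6 against 30.5 and 26.4 CPM). The list median was -0.05, and the receptor genes did not pass.

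Antigen presentation genes were in part lower. MHC class I molecules show peptides that the immunoproteasome cuts and the TAP transporter brings into the endoplasmic reticulum. Of 18 genes 7 were lower, median -0.28, although 4 were without shMTHFD2 control 2 and 3 without shMock control 2. PSMB9, an immunoproteasome subunit, went from 27.8 and 28.9 to 15.1 and 13.8 CPM (-0.97), and TAP1 from 207 and 211 to 128 and 121 CPM (-0.75). TAP2 (-0.55) lost its call without shMock control 2 or shMTHFD2 control 1 (edgeR adjusted p = 0.058 and 0.052). HLA-B (-0.19) and B2M (-0.14), picked for their role, did not pass, while the class I gene HLA-E passed as lower. The HLA-E call was lost without shMock control 2 or shMTHFD2 control 2. The class I genes are near-identical enough that counts between them are uncertain. The letters GAAA, 2 bases and GAAA stood in 8 of 15 promoters of this list and in 3 of 6 of its lower members.

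Some immune ligands and cytokines were lower. Of 12 checkpoint ligands 4 were lower and 8 did not pass. LGALS9 (galectin-9) went from 8.04 and 6.95 to 2.64 and 3 CPM (-1.41) and PVR, a ligand of TIGIT, from 99.2 and 84.1 to 60.4 and 54.1 CPM (-0.68). CD274, which encodes PD-L1, had 6.56 and 8.28 against 3.52 and 4.5 CPM (-0.89), a call lost without any 1 of shMock control 2, shMTHFD2 control 1 and shMTHFD2 control 2 (edgeR adjusted p = 0.21, 0.14 and 0.053). Only 15 of 36 cytokines and chemokines passed the filter on low values, of which 4 were lower, or 2 without shMTHFD2 control 1, and 11 did not pass. CXCL10, an interferon-induced chemokine for T cells, fell most, from 12.9 and 13.5 to 3.19 and 3.20 CPM (-2.04, SE 0.20, edgeR adjusted p = 1.7e-05). TNFAIP6 (-1.07) and TNFAIP3 (-0.75) lost their calls without 3 of the 4 resting libraries each (edgeR adjusted p up to 0.26 and 0.21). IL6 stood at 2.695 and 3.01 against 1.67 and 1.34 CPM and did not pass (edgeR adjusted p = 0.11).

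Enzymes next to MTHFD2 in folate and serine metabolism were in part lower. Of 22 tested besides the target 6 were lower and none higher, median -0.21, and 3 were without shMTHFD2 control 2 or without shMock control 2. The serine synthesis enzymes PSAT1 (49.1 and 49.5 against 28.9 and 29.4 CPM, log2 fold change -0.76, edgeR adjusted p = 9.7e-05) and PHGDH (52.8 and 57.4 against 36.0 and 32.5 CPM, -0.69) lay apart between the lines. ALDH1L2, which oxidises the mitochondrial folate carbon to CO2, went from 77.4 and 71.6 to 46.7 and 50.7 CPM (-0.61). The mitochondrial partners SHMT2 (139 and 135 against 109 and 103 CPM) and MTHFD1L (62.4 and 64.9 against 48.9 and 49.3 CPM) were lower by 0.37 each on the log2 scale, with edgeR adjusted p = 0.0058 and 0.0079. The folate hydrolase GGH was the sixth (-0.59). SHMT2, MTHFD1L and GGH lost their calls without shMock control 2 (edgeR adjusted p = 0.051, 0.11 and 0.21) or shMTHFD2 control 2 (0.074, 0.059 and 0.060), GGH also without shMTHFD2 control 1 (0.076). The cytosolic enzymes did not pass: SHMT1 had a log2 fold change of -0.38 (edgeR adjusted p = 0.14) and MTHFD1 of -0.16.

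Among 15 purine enzymes 2 were lower, or 1 without shMTHFD2 control 2. PRPS1, which makes the ribose phosphate on which purines are built, went from 151 and 152 to 83.8 and 83.6 CPM (-0.85, SE 0.08, edgeR adjusted p = 7.4e-06), with replicates almost equal. IMPDH1, the committed step to guanine nucleotides, was lower by 0.45 and lost the call without shMTHFD2 control 2 (edgeR adjusted p = 0.074). Among 13 genes of pyrimidine and deoxynucleotide synthesis 4 were lower and 1 higher, but only 1 was lower without shMock control 2 or shMTHFD2 control 2, and 2 on library totals. The S-phase enzymes TK1 (16.6 and 15.4 against 9.21 and 6.46 CPM) and RRM2 (21.6 and 25.6 against 12.2 and 13 CPM) fell, TK1 not without shMTHFD2 control 2 (edgeR adjusted p = 0.071) and RRM2 not without shMock control 2 (0.062). RRM2B, the p53-induced counterpart of RRM2, had 66.3 and 64.0 against 82.1 and 84.8 CPM (0.36), a call lost without shMock control 2 (edgeR adjusted p = 0.089) or shMTHFD2 control 2 (0.060). Thymidylate synthase, TYMS, did not pass (-0.37, edgeR adjusted p = 0.17). In the list for the methionine cycle and transsulfuration 2 of 11 genes passed as higher (GCLC 0.32, MTR 0.30) and CTH as lower (-1.22). These calls were lost without shMock control 2 or without shMTHFD2 control 2.

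Genes of the ATF4 stress response fell broadly. ATF4 is translated when amino acids run short or proteins misfold, and it raises amino acid transporters, aminoacyl-tRNA synthetases and asparagine synthetase. Of 30 genes 19 were lower and 1 higher, median -0.45, with 11 lower without any 1 of shMock control 1, shMock control 2 and shMTHFD2 control 2. ATF3, a stress-induced repressor, went from 26.5 and 24.1 to 12.6 and 12 CPM (-1.04, SE 0.12, edgeR adjusted p = 4.5e-05). The transporter SLC1A4 (-0.98) and the lipoprotein receptor VLDLR (-0.85) lost their calls without shMock control 2 (edgeR adjusted p = 0.059 and 0.074) or shMTHFD2 control 2 (0.20 and 0.066), SLC1A4 also without shMock control 1 (0.099). Asparagine synthetase, ASNS, had 33.4 and 25.6 against 18.3 and 17.1 CPM (-0.73), and ATF4 itself 526 and 530 against 441 and 423 CPM (-0.29, edgeR adjusted p = 0.024), both given here for their role. The ATF4 call was lost without any 1 of the 4 resting libraries or shMTHFD2 TGF-β1 1 (edgeR adjusted p up to 0.20). SLC7A11, the cystine transporter, was the exception at 331 and 283 against 382 and 430 CPM (0.40), a call lost without shMock control 2 (edgeR adjusted p = 0.15) or shMTHFD2 control 2 (0.11). The letters TGATGNAA, in the form of a C/EBP-ATF element, stood in 6 of 26 promoters of the list (23.1%), in 4 of 17 of its lower members and in 1.57% of all.

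The unfolded protein response, the chaperone programme of the endoplasmic reticulum, had 7 of 18 genes lower and none higher (median -0.255), but 3 without shMock control 2 or shMTHFD2 control 2 and 4 without shMock control 1. HSPA5, the chaperone BiP, went from 446 and 431 to 284 and 291 CPM (-0.61, SE 0.08, edgeR adjusted p = 1.5e-04), and the transcription factor XBP1 from 62.1 and 63.8 to 38.9 and 41.6 CPM (-0.65). HERPUD1, which helps degrade misfolded proteins, was lower by 0.42. The element of this response, CCAAT and CCACG spaced by 9 bases, is rare: it stood in 6 of 17 promoters of the list (35.3%) and in 14 of all 10300 (0.136%). It is shown in capitals upstream of XBP1, where 1 copy lies (GRCh38.p14):
XBP1 (chr22:28800570-28800689, minus strand): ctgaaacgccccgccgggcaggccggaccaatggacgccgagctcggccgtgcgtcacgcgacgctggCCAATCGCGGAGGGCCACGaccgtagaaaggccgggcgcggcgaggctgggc

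Genes of the actin cytoskeleton were lower, including some of the most abundant messages. Stress fibres are bundles of actin with tropomyosin, calponin and myosin light chains, and they set the contractile force of a fibroblast. Of 35 contractile and stress fibre genes 23 were lower and none higher, median -0.39, with 13 lower without shMTHFD2 control 2 and 19 on library totals. ACTG2, a smooth muscle actin, had 68.0 and 62.7 against 33.4 and 36.5 CPM (-0.90, SE 0.09, edgeR adjusted p = 1.6e-05). CNN1 (calponin) had 22.8 and 25.9 against 16.2 and 10.8 CPM (-0.85), and TPM1 (tropomyosin) 332 and 331 against 179 and 191 CPM (-0.84). The cytoplasmic actins had 3997 and 4210 against 2873 and 2722 CPM for ACTB and 2655 and 2761 against 2106 and 1858 CPM for ACTG1. The ACTG1 call was lost without shMock control 2 (edgeR adjusted p = 0.056) or shMTHFD2 control 2 (0.081), and the actin genes are alike enough in sequence that reads may be shared between them. ACTA2, the α-smooth muscle actin that marks myofibroblasts, had 101 and 104 against 93.9 and 88.0 CPM and did not pass (-0.18, edgeR adjusted p = 0.18).

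Targets of YAP/TAZ and SRF, the factors that read actin tension, had 13 of 30 genes lower and 1 higher (median -0.33), with 8 lower without shMock control 1 or shMTHFD2 control 2. The matricellular genes CCN2 and CCN1 are their best known targets. CCN2 went from 480 and 492 to 241 and 249 CPM (-0.99, SE 0.08, edgeR adjusted p = 6.0e-06) and CCN1 from 305 and 295 to 163 and 150 CPM (-0.93). IER3 was lower by 0.84, and MRTFB, an SRF cofactor, was higher by 0.42 with a call lost without shMock control 2 (edgeR adjusted p = 0.15) or shMTHFD2 control 2 (0.097). The letters GGAATG, bound by TEAD partners of YAP, stood in 7 of 24 promoters of this list (29.2%), in 2 of 9 of its lower members and in 10.9% of all. The CArG box of SRF stood in 2 of 24 promoters of this list (8.33%), in 0 of 9 of its lower members and in 1.07% of all, and in the contractile list in 6 of 32 (18.8%) and in 4 of 20 lower members. The CCN2 promoter carries 3 copies of GGAATG and the ACTG2 promoter 2 CArG boxes in these 120 bases (capitals, GRCh38.p14):
CCN2 (chr6:131951433-131951552, minus strand): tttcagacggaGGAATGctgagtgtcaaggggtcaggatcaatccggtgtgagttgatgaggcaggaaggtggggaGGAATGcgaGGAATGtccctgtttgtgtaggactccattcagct
ACTG2 (chr2:73892861-73892980, plus strand): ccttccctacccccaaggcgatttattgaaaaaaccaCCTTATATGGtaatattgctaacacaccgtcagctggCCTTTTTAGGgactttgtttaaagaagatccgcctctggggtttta

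Direct TGF-β targets were mostly not called in these cells, to which no TGF-β1 had been added. Of 26 genes 4 were lower (median -0.16), or 2 when shMock control 1, shMock control 2, shMTHFD2 control 2 or shMTHFD2 TGF-β1 1 was left out, and 2 on library totals. CDKN2B, a cell cycle inhibitor, went from 44.9 and 38.5 to 29.4 and 28.1 CPM (-0.54, SE 0.098, edgeR adjusted p = 0.0023). SERPINE2 (-0.30) lost its call without any 1 of 6 libraries (edgeR adjusted p up to 0.28).

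The main fibrillar collagens did not pass. COL1A1 stood at 12510 and 10660 against 10840 and 9624 CPM (edgeR adjusted p = 0.31), COL1A2 had a log2 fold change of -0.02 and COL3A1 of 0.05. Of 25 collagens 3 were lower and 1 higher (median -0.12), with 1 lower without shMock control 1 or shMTHFD2 control 2. COL4A5, a basement membrane chain, was the higher one at 147 and 131 against 218 and 226 CPM (0.68, SE 0.08, edgeR adjusted p = 7.5e-05). COL15A1 fell by 0.59 and COL5A3 by 0.45, the latter not without shMock control 1 (edgeR adjusted p = 0.13) or shMTHFD2 control 2 (0.17), and COL13A1 (-0.63) lost its call without any 1 of the 4 resting libraries (up to 0.19).

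Among 36 matrix glycoproteins and proteoglycans 11 were lower and 3 higher (median -0.19). THBS1, the matrix protein that activates latent TGF-β, went from 965 and 834 to 403 and 414 CPM (-1.14, SE 0.10, edgeR adjusted p = 6.2e-06). SPARC, which binds collagen, went from 1987 and 2027 to 1367 and 1358 CPM (-0.56), and SPON2 from 1067 and 1145 to 798 and 636 CPM (-0.625). LAMA2 (0.57), VCAN (0.46) and LAMA4 (0.29) were the higher members, and all 3 lost their calls without shMock control 2 (edgeR adjusted p = 0.20, 0.16 and 0.42) or shMTHFD2 control 2 (0.099, 0.19 and 0.17). The lower members numbered 5 without either of these libraries and 7 without shMock control 1, and 5 members were higher on library totals. Enzymes that crosslink or process collagen had 10 of 24 lower and 1 higher, but 1 lower without shMock control 2 or shMTHFD2 control 2, 4 without shMock control 1 and 4 on library totals. LOX, which crosslinks collagen and elastin, held its call throughout, from 432 and 428 to 277 and 292 CPM (-0.59). Among 25 proteases and inhibitors 7 were lower, 3 of them without shMock control 2, and 2 higher. TIMP3, a matrix-bound inhibitor of metalloproteases, had 106 and 105 against 56.8 and 60.8 CPM (-0.85), and the protease ADAMTS15 had 6.29 and 5.72 against 11.5 and 11.7 CPM (0.95), a call lost without shMock control 2 (edgeR adjusted p = 0.077) or shMTHFD2 control 2 (0.069).

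Secreted signals were lower in several pathways. Wnt signalling had 8 of 29 genes lower and none higher, or 5 without any 1 of shMock control 1, shMock control 2 and shMTHFD2 control 2. They included genes for secreted inhibitors as well as the ligand genes WNT16 and WNT5B. DKK1, which blocks the Wnt coreceptor, went from 35.0 and 37.0 to 15.9 and 13.6 CPM (-1.28, SE 0.10, edgeR adjusted p = 3.8e-06), and SFRP1, which binds Wnt proteins, from 118 and 118 to 58.5 and 60.5 CPM (-0.99). The ligand gene WNT16 had 35.8 and 42.1 against 20.9 and 19.0 CPM (-0.96). Growth factors and BMP or activin signals had 14 of 35 genes lower and 1 higher (median -0.30), with 7 to 9 lower without any 1 of the 4 resting libraries. PDGFB, a mitogen for fibroblasts, had 1.75 and 1.82 against 0.370 and 0.413 CPM (-2.17, edgeR adjusted p = 0.0048), a low level that limits its precision. The EGF receptor ligand EREG (-0.94) and IGFBP3 (94.1 and 89.5 against 51.4 and 48.2 CPM, -0.88) fell, and the receptor PDGFRA had 277 and 270 against 330 and 345 CPM (0.30), a call lost without shMock control 1, shMock control 2 or shMTHFD2 control 2 (edgeR adjusted p = 0.088, 0.16 and 0.14).

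The largest falls in CPM also included surface and signalling genes. CD44, the hyaluronan receptor, went from 1731 and 1657 to 839 and 880 CPM (-0.98, SE 0.09, edgeR adjusted p = 1.1e-05). RND3, an atypical small GTPase that loosens stress fibres, went from 1501 and 1519 to 761 and 815 CPM (-0.94). GAS6, the ligand of the receptor AXL, had 1311 and 1272 against 872 and 708 CPM (-0.71), and TPM4 had 1503 and 1553 against 1068 and 1052 CPM (-0.53). The fibroblast markers THY1 (-0.63), VIM (-0.32) and DCN (-0.31) were also lower, together with FAP, against 1 marker of 13 that was higher, PDGFRA. VIM and DCN each lost their calls without any 1 of 5 libraries (edgeR adjusted p up to 0.30 and 0.13), and FAP without any 1 of 6 (up to 0.23). MCAM, a pericyte and mural cell adhesion molecule, fell from 160 and 157 to 93.5 and 85.4 CPM (-0.82) and was the 1 lower gene of 8 tested markers of smooth muscle, pericytes and mesothelium, while DES and WT1 of that list had no counts. CD68, tested alone of 10 leukocyte markers, was lower by 0.45.

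**Figure D3:**
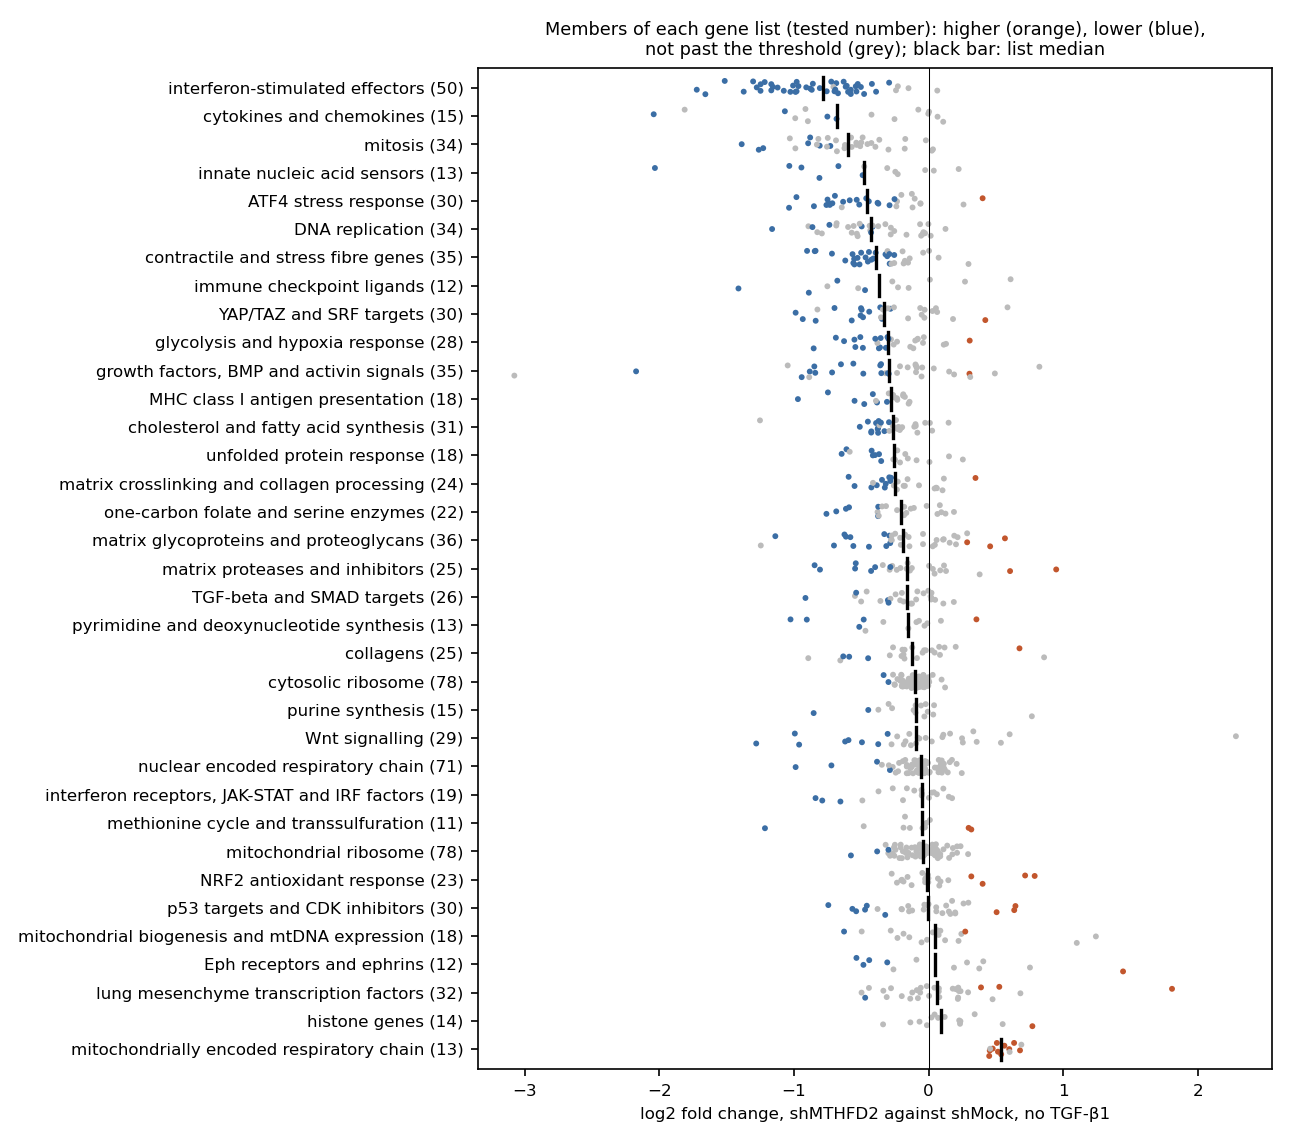
Log2 fold change (x axis) of every tested member of 35 gene lists, 1 row a list with the number tested in brackets, coloured by higher (orange), lower (blue) or not past the threshold (grey), with a black bar at the list median. Interferon effectors have the lowest median (-0.78) and mitochondrially encoded genes the highest (0.54), and nuclear respiratory chain genes sit near 0.

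Messages of the mitochondrial genome were higher, on the weight of a pair of libraries. The mitochondrial DNA encodes 13 subunits of the respiratory chain, and 10 of them passed the test as higher (list median 0.54). They also make up the 10 largest rises in CPM among called genes. MT-CO1, a subunit of cytochrome oxidase, had 16110 and 10980 against 17030 and 20100 CPM (0.45, SE 0.14, edgeR adjusted p = 0.046). MT-ND2, of complex I, had 1902 and 1325 against 2133 and 2881 CPM (0.64, edgeR adjusted p = 0.012), and MT-ND5 had 2575 and 1575 against 2914 and 3736 CPM (0.68). The first library of each line lay close together, and the distance between the lines came mostly from shMock control 2, the lowest of the 4, and shMTHFD2 control 2, the highest. None of the 13 was called without shMock control 2 (median 0.29, lowest edgeR adjusted p = 0.13), none without shMTHFD2 control 2 (median 0.35, lowest 0.16), and none by DESeq2 (lowest adjusted p = 0.057). Mitochondrial genes took 5.51 and 3.89% of the counts in shMock and 6.24 and 7.74% in shMTHFD2. With TGF-β1 the 13 log2 fold changes ran from -0.43 to -0.21 and none was called, and the test of the difference between the conditions called none of them (edgeR adjusted p from 0.10 to 0.24). Part of the counts may come from nuclear copies of these genes.

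**Figure D4:**
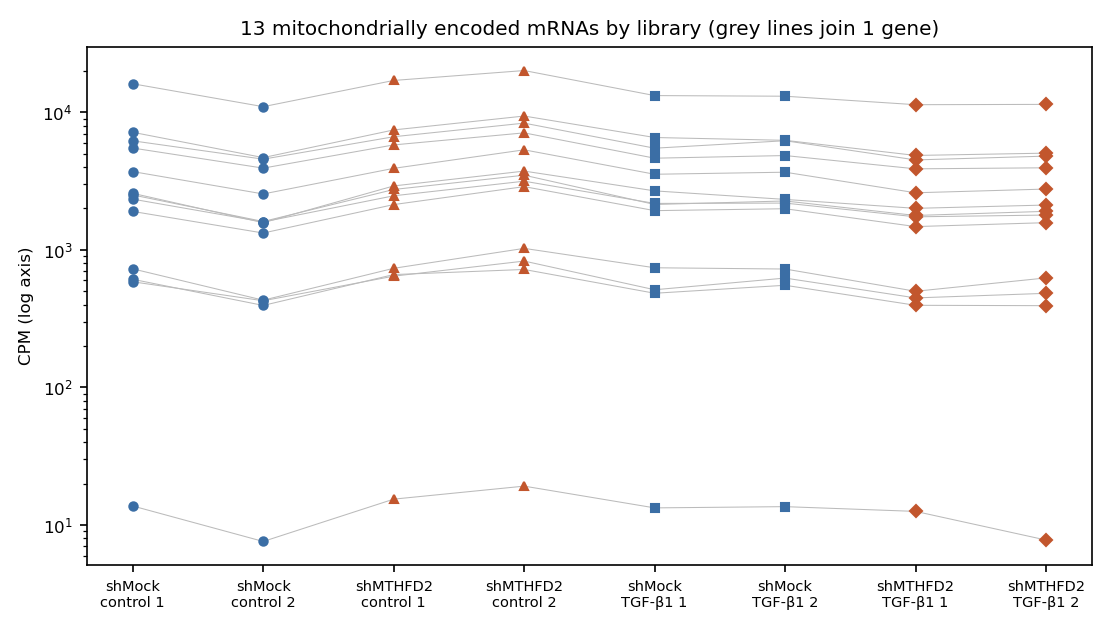
CPM on a log axis of the 13 mitochondrially encoded mRNAs in each of the 8 libraries (blue shMock, orange shMTHFD2), with grey lines joining the values of 1 gene. Within the resting groups shMock control 2 is the lowest library and shMTHFD2 control 2 the highest, while the first replicates of both lines lie close together.

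Nuclear genes for mitochondria did not follow. Of 71 nuclear respiratory chain genes 4 were lower and none higher (median -0.06), and 2 were lower without shMock control 2 or without shMTHFD2 control 2. COX7C, a small subunit of cytochrome oxidase, had 73.1 and 78.7 against 40.9 and 35.5 CPM (-0.99, SE 0.11, edgeR adjusted p = 3.1e-05), and COX7A2 had 45.1 and 50.1 against 28.7 and 29 CPM (-0.72), while COX8A (-0.38) lost its call without shMock control 2 or shMTHFD2 control 2 (edgeR adjusted p = 0.18 and 0.10). The mitochondrial ribosome had 3 of 78 genes lower and the cytosolic ribosome 2 of 78, shares below the 8.19% of all genes. MRPL49, a mitochondrial ribosomal protein, fell from 50.9 and 51.8 to 33.6 and 35.3 CPM (-0.58), and the others named by the same rule, MRPL15, MRPS6, RPL34 and RPL12, lay between -0.38 and -0.30 and each lost the call without shMock control 2 or shMTHFD2 control 2. Of 18 genes of mitochondrial biogenesis and mitochondrial DNA expression 1 was higher and 1 lower (median 0.05). The higher one, LRPPRC, lost its call without any 1 of the 4 resting libraries. The lower one, TFAM, which packs and transcribes mitochondrial DNA, had 18.4 and 15.1 against 11.1 and 10.5 CPM (-0.63). The TFAM call was lost without shMock control 1, shMTHFD2 control 1 or shMTHFD2 control 2.

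Glycolysis and the hypoxia response, which HIF factors drive together, had 14 of 28 genes lower and 1 higher (median -0.30). The count was 5 without shMock control 2 or shMTHFD2 control 2, 9 without shMTHFD2 control 1 and 9 on library totals. ADM (adrenomedullin, a vasodilator peptide) had 261 and 266 against 164 and 127 CPM (-0.85, SE 0.10, edgeR adjusted p = 9.7e-05), the glycolytic PGAM1 327 and 356 against 209 and 214 CPM (-0.69), and NDRG1 141 and 138 against 98.1 and 82.1 CPM (-0.63). The glucose transporter SLC2A1 was lower by 0.54 and LDHA by 0.32, the latter a call lost without any 1 of 4 libraries, among them shMock control 2 (edgeR adjusted p = 0.34). The core letters NACGTG of the hypoxia element stood in 9 of 25 promoters of the list (36.0%), in 3 of 12 of its lower members and in 27.0% of all. Cholesterol and fatty acid synthesis had 12 of 31 genes lower and none higher (median -0.27), but 3 without shMock control 2 and 4 without shMTHFD2 control 2. DHCR7, a late enzyme of cholesterol synthesis, had 294 and 292 against 235 and 201 CPM (-0.43), a call lost without shMock control 2 (edgeR adjusted p = 0.059) or shMTHFD2 control 2 (0.13). The NRF2 antioxidant response had 4 of 23 genes higher and none lower (median -0.01), or 1 without shMock control 2 or shMTHFD2 control 2. AKR1C1, a ketosteroid reductase, kept its call, from 87.8 and 73.6 to 131 and 134 CPM (0.72), though its near-identical neighbour AKR1C2 (0.79) makes the split of reads between them uncertain. HMOX1 (-0.004) and NQO1 (-0.02), textbook NRF2 targets, did not pass.

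A minority of proliferation genes passed the test, all as lower. The 34 mitosis genes summed to 306 and 318 CPM in shMock and 204 and 217 CPM in shMTHFD2, 32 of the 34 log2 fold changes were below 0 (median -0.60), and 7 passed the test. At these levels the calls were thin, with 1 to 3 left without any 1 of the 4 resting libraries. DLGAP5 (2.60 and 3.80 against 1.34 and 1.08 CPM), the apoptosis inhibitor and mitotic regulator BIRC5 (7.28 and 7.10 against 3.24 and 2.74 CPM) and CDC20, which triggers anaphase (4.31 and 3.60 against 1.67 and 1.71 CPM), fell by 1.39, 1.26 and 1.23, and none of the 3 was called without shMTHFD2 control 2 (edgeR adjusted p = 0.25, 0.11 and 0.18). The letters TTTGAA of the cell cycle element stood in 20 of 29 mitosis promoters (69.0%) against 9.54% of all. DNA replication had 6 of 34 genes lower (median -0.43), 3 without shMTHFD2 control 1 or on library totals, 1 without shMTHFD2 control 2 and none without shMock control 2. MCM2, of the replicative helicase, had 21.6 and 26.7 against 15.1 and 13.9 CPM (-0.74), a call lost without shMock control 2 (edgeR adjusted p = 0.077).

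Targets of p53 and CDK inhibitors were split, with 3 of 30 higher and 6 lower (median -0.004), and 5 higher on library totals. SESN1 (35.5 and 29.2 against 46.2 and 55.2 CPM, 0.65), the RNA-binding p53 target ZMAT3 (140 and 139 against 205 and 228 CPM, 0.64) and TP53INP1 (193 and 175 against 248 and 274 CPM, 0.51) were higher. CCNG1, also a p53 target, had 155 and 160 against 91.0 and 96.6 CPM (-0.75), and GADD45A was lower by 0.57. All 5 kept their calls with any 1 library left out. CDKN1A, the p53 target that arrests the cell cycle, stood at 1455 and 1461 against 1495 and 1406 CPM and did not pass.

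Of 32 transcription factors of lung mesenchyme 3 were higher and 1 was lower (median 0.06), and 6 were higher on library totals. MEOX2, a homeobox factor of mesoderm, had 1.80 and 2.12 against 5.56 and 8.21 CPM (1.81, SE 0.40, edgeR adjusted p = 0.0087), a call lost without shMock control 1 (0.061) or shMTHFD2 control 2 (0.10). MEIS2 (0.53) and NR2F2 (0.39) lost their calls without shMock control 2 (edgeR adjusted p = 0.057 and 0.052), MEIS2 also without shMTHFD2 control 1 (0.051). TWIST1 (-0.47) lost its call without any 1 of the 4 resting libraries (up to 0.29). Of 12 Eph receptors and ephrins 4 were lower and EPHA7 was higher (0.674 and 0.444 against 1.44 and 1.65 CPM), and that call was lost without any 1 of the 4 resting libraries. The 4 lower ones became 0 without shMTHFD2 control 2, 1 without shMock control 1, and 2 without shMock control 2 or on library totals. EFNB2 (-0.54), EPHA2 (-0.48) and EFNB1 (-0.44) lost their calls without shMTHFD2 control 2 (edgeR adjusted p = 0.15, 0.11 and 0.19). Of 14 histone genes 1 was higher, H2AC6, from 20.6 and 20.4 to 37.5 and 32.5 CPM (0.77, edgeR adjusted p = 4.5e-04).

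The largest fold changes outside the lists were mostly of genes with few counts. CFTR, the chloride channel mutated in cystic fibrosis, had 2.52 and 1.82 against 6.34 and 6.82 CPM (1.59, SE 0.27, edgeR adjusted p = 0.0013), and was the 1 gene of the 10 largest rises whose call held with any 1 library left out. INO80B-WBP1 had no counts in resting shMock and 3.43 and 10 CPM in resting shMTHFD2. That is at least 92.8-fold higher against a floor of 3 counts over the shMock group. With TGF-β1, however, INO80B-WBP1 had 2.45 and 0 CPM in shMock and 6.18 and 0 CPM in shMTHFD2. Its counts thus came and went between replicates of the same group. It is a read-through transcript of INO80B (-0.08) and WBP1 (0.28), neither of which passed, and its call was lost without 3 of the 4 resting libraries (edgeR adjusted p from 0.075 to 0.087). The zinc finger gene ZNF483 (1.30 and 2.12 against 5.33 and 5.22 CPM) lost its call without shMock control 1 (edgeR adjusted p = 0.064). SNURF, DLEU2L, NUTM2B, FAM106A and ZNF185 stood between 0.345 and 2.07 CPM in shMock and 1.39 and 4.70 CPM in shMTHFD2. None of them was called without shMock control 2. SNURF, DLEU2L and NUTM2B averaged 0.399 to 0.639 CPM in the shMock groups without and with TGF-β1. They reached the minimum mean of 1 CPM only through the shMTHFD2 groups, so the filter itself favoured finding them higher there. Among the largest falls, TGFB2-OT1, a transcript within TGFB2, had 1.75 and 2.91 CPM against 0.232 and none (-4.19, edgeR adjusted p = 0.0014). It averaged 0.116 and 0.560 CPM in the shMTHFD2 groups without and with TGF-β1, and passed the filter only through the shMock groups. The keratin-associated gene KRTAP1-5 had 5.21 and 5.18 against 1.53 and 1.40 CPM (-1.82, edgeR adjusted p = 0.0034). DYSF, CARMN and PIMREG lost their calls without shMock control 2 (edgeR adjusted p = 0.27, 0.35 and 0.12) or shMTHFD2 control 2 (0.16, 0.27 and 0.13), DYSF also without shMTHFD2 control 1 (0.13). FAM156A spread widely within groups, at 40.5 and 87.8 against 7.64 and 28.4 CPM, has a near-identical copy, and lost its call without shMock control 2 (edgeR adjusted p = 0.14) or shMTHFD2 control 1 (0.057).

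The same pair of lines was compared in 4 other libraries, those with TGF-β1. The levels compared come from no resting library, but from the same cell lines and hairpins. Calls of both comparisons came from 1 fit that estimated the spread from all 8 libraries, so they are not independent. In the TGF-β1 comparison 1762 genes were called (13.1%), 652 higher (4.83%) and 1110 lower (8.23%). Of the 1543 genes called in resting cells, 749 were called in the same direction with TGF-β1 (130 higher, 619 lower) and 6 in the opposite one. The 749 are 48.5% of the resting calls and 42.5% of the others. The same sign was seen in 1378 of the 1543, and the matching share over all tested genes was not computed. The interferon effectors were lower in 44 of 50 with TGF-β1 and the contractile genes in 22 of 35, with 43 and 17 genes called in both comparisons. The glycolysis and hypoxia genes had 4 lower of 28 with TGF-β1, against 14 in resting cells, and matrix glycoproteins 4 of 36 against 11. A call in 1 condition and not in the other is not itself a difference, so the difference between the conditions was tested for every gene.

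**Figure D5:**
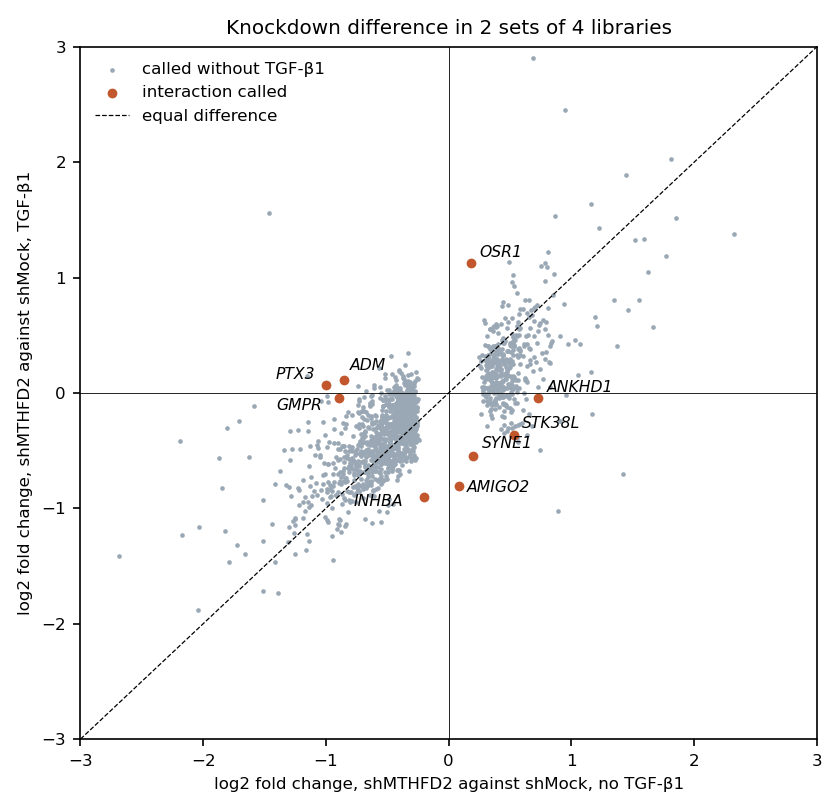
Log2 fold change of shMTHFD2 against shMock without TGF-β1 (x axis) and with it (y axis) for the genes called in resting cells (grey), with the 9 named genes whose difference passed the interaction test in orange. The axes end at 3, 1537 called genes are drawn and 6 lie outside, and most grey points fall in the quadrants of equal sign.

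That interaction test called 12 genes of 13493 (0.0889%), 7 with a higher (0.0519%) and 5 with a lower (0.0371%) value in resting cells, and 1718 had an unadjusted p under 0.05. PTX3, a secreted pattern recognition protein, was the clearest. It had 166 and 162 CPM in shMock and 81.7 and 82.3 CPM in shMTHFD2 in resting cells (-0.9996, SE 0.08, edgeR adjusted p = 3.3e-06) and no called difference with TGF-β1 (0.07), and the difference between the conditions was -1.07 (SE 0.12, edgeR adjusted p = 0.0014) and was called in every alternative fit. ADM (-0.85 against 0.11) and GMPR, which returns guanine nucleotides to the inosine pool (43.8 and 47.8 against 24.4 and 25 CPM, -0.89 in resting cells against -0.04 with TGF-β1), also fell in resting cells without a called fall with TGF-β1. ANKHD1 was higher in resting cells (38.5 and 40.2 against 65.1 and 65.6 CPM, 0.73) and at -0.04 with TGF-β1, and it shares exons with a read-through neighbour. STK38L, a Hippo-pathway kinase, was higher in resting cells (0.53) and lower with TGF-β1 (-0.36). AMIGO2, SYNE1, INHBA and OSR1 had no called difference in resting cells.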

How the data were processed

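Per the labels' protocols, mRNA of MRC5 cells was read on an Illumina NovaSeq. The deposited table gives whole-number counts for 60666 Ensembl gene IDs and 8 libraries, although its name speaks of FPKM. STAR 2.7.1a, DESeq2 1.32.0 and GRCh38 are listed, without roles, in the submitters' processing notes. For the counter and the use of strand nothing is given in the sources used here. Symbols were found for 60437 IDs and positions, from GENCODE release 29, for 58420. Of 162 named genes 26 overlap another gene on the same strand and 56 one on the opposite strand, so their counts carry that uncertainty.

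Genes averaging 1 CPM or more over the 8 libraries were fitted with edgeR's quasi-likelihood test (edgeR 4.0.16, R 4.3.3, TMM factors), all 8 libraries in 1 fit with a mean per group and 4 residual degrees of freedom, with Benjamini-Hochberg adjustment over all 13493 genes and a threshold of 0.05. The common biological coefficient of variation was 8.79%. CPM levels use TMM-scaled library sizes and ignore gene length, so genes are not ranked by level. SEs are approximate, being the fold change over the root of F. The fit was also tested on simulated counts for the resting comparison (13493 genes). It called 63 of 100 genes changed 1.5-fold and 92 of 100 changed 2-fold, in the right direction, with 9 false calls. Every simulated gene had the common coefficient of variation, and no other gene differed between the groups. The figures therefore do not give the performance on the real libraries, where the spread may differ by gene and more genes may change. The 40 gene lists and the genes examined were chosen with earlier results of these data known, and lists are described by counts and medians without a test. Named were MTHFD2, the 10 largest called fold changes and CPM changes in each direction (fold changes only where the libraries of the groups do not overlap), up to 3 called members per list and direction (the 2 most abundant as values where none passed), up to 5 interaction genes per direction, and called neighbours of MTHFD2. IDs without a symbol, clone names, antisense genes and pseudogenes were passed over. Further members are named for their role, after their values were seen. Some genes that the rule names are not reported here. Promoters came from a RefSeq table of GRCh38.p14. Samples were not paired by replicate number. Differences between replicates 1 and 2 correlated between groups at -0.03 to 0.10, which cannot exclude a shared culture or batch. Alternatives were other scalings, filters, tests (DESeq2 1.42.0, voom of limma 3.58.1), a replicate block, resting libraries alone, GC and length offsets, and leaving out each library in turn.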

Additional observations from a re-analysis of the deposited data

Results flagged for a closer look

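In 9 named genes the test of the difference itself found that the knockdown difference was not the same without and with TGF-β1, given here as the resting minus the TGF-β1 log2 fold change. The 4 lower ones were PTX3 (-1.07), ADM (-0.97), OSR1 (-0.95) and GMPR (-0.85). The 5 higher ones were STK38L (0.89), AMIGO2 (0.89), ANKHD1 (0.77), SYNE1 (0.75) and INHBA (0.71). Except for PTX3, whose edgeR adjusted p reached 0.015 at most with any 1 library left out, each lost the call without shMTHFD2 control 2, shMock control 2 or shMock TGF-β1 1 (edgeR adjusted p from 0.088 to 0.19). The other 3 called IDs were passed over by the naming rule, which leaves out IDs without a symbol, clone names, antisense genes and pseudogenes.

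The levels show where these differences lay. OSR1, a mesenchymal transcription factor, had 39.3 and 37.3 against 45.4 and 41.4 CPM in resting cells and 15.1 and 16.9 against 37.2 and 32.7 CPM with TGF-β1. INHBA, the activin A subunit, had 67.9 and 62.0 against 52.7 and 60.6 CPM in resting cells and 364 and 363 against 191 and 197 CPM with TGF-β1. AMIGO2, an adhesion protein, had 20.6 and 19.1 against 18.9 and 23.4 CPM in resting cells and 286 and 302 against 163 and 172 CPM with TGF-β1. In OSR1, INHBA and AMIGO2 the lines lay apart with TGF-β1, and in resting cells the test called none of the 3. ADM and GMPR lay apart in resting cells, and with TGF-β1 ADM had 85.2 and 94.9 against 99.8 and 94.9 CPM and GMPR 34.9 and 38 against 35.1 and 35.8 CPM. The causes were not tested.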

How the results depend on the processing

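With 2 libraries a group, calls depended most on single libraries, and with 1 left out the lone library of its group is assumed to vary like the others. Leaving out each library in turn gave 585 to 1681 resting calls (90 to 537 higher, 495 to 1175 lower), 841 to 1820 with TGF-β1 (226 to 598 higher, 591 to 1226 lower), 3 to 192 for the interaction (2 to 88 higher, 1 to 104 lower), and 418 to 707 calls shared by the resting and TGF-β1 comparisons. Scaling on library totals gave 755 higher resting genes (50.5% of calls against 28.4%), and with TGF-β1 1338 higher and 717 lower ones. The interaction count rested on the method: DESeq2 called 105 genes (52 higher, 53 lower), a fit with no filter 321 (149 and 172), a minimum of 5 CPM 36 (24 and 12), and GC and length offsets, added after seeing the data, 20 (10 lower). The replicate block called 1530 resting genes, 1462 of them among the 1543, ended the interaction call of INHBA (edgeR adjusted p = 0.051), and moved no count over all genes beyond 1.5 times. Among list counts it gave 2 lower methionine cycle and transsulfuration genes for 1, 1 higher purine synthesis gene for 0 and 0 higher mitochondrial biogenesis genes for 1. Other resting counts were 1544 by DESeq2, 1619 by voom, 1510 and 1484 with other factors, 1808 with GC offsets, 1822 with GC and length offsets (1393 shared with the 1543), and 1698 from the resting libraries alone. Of 153 named genes past the threshold 72 held it in every fit that tested them, fits with 1 library left out included. None of the 153 changed sign. A gene that a filter removed from a fit was not counted as lost there, and the minimum of 5 CPM tested 140 of the 161 named genes besides MTHFD2. MTHFD2 ran from -1.95 to -1.62. The causes were not tested. Genes under about 1 CPM were not assessed.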

Other observations

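Across the 13493 tested genes the resting log2 fold change had a Spearman correlation of -0.143 with gene GC content and of 0.161 with transcript length, a description over genes, which are not independent. MYC, a growth-promoting transcription factor in none of the lists and picked after its value was seen, had 28.8 and 20.5 CPM in shMock and 14.3 and 12.5 CPM in shMTHFD2 (log2 fold change -0.88, edgeR adjusted p = 0.0020).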
